A study of Arabidopsis thaliana with 21 samples.

Results

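PDF1.2, PDF1.2b and LCR66 are 3 genes of Arabidopsis thaliana that encode plant defensins or defensin-like peptides, and each was followed here by the probe set that the array annotation gives to that gene alone. These were 3 of 22746 probe sets without hybridisation controls, of which 13436 were annotated to a single gene. The genes were chosen because of their values on these same arrays, so their levels and differences are given as a description without a test.

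The arrays came from the aerial parts (tissue label rosette) of soil-grown plants aged 21 days, with 3 arrays for each of 7 genotypes, all in the Col-0 ecotype. The line aba2 is mutant in an enzyme gene of abscisic acid (ABA) synthesis, and aba2/ga20ox1 and aba2/GA20OX1-OE carry in addition the ga20ox1 mutation or GA20OX1-OE. ABA2-OE, by its name, overexpresses the same ABA enzyme gene, ga20ox1 is mutant in an enzyme gene of gibberellin (GA) synthesis, GA20OX1-OE overexpresses that gene, and Col-0 is the wild type. The sources used here do not give the promoters of the overexpressors, the number of independent lines or whether arrays stand for single plants or pools. The study asks how ABA and GA act on each other in leaf development. Neither engineered gene has a probe set named by the annotation, so the genotype labels were not checked by their own transcripts. In bulk tissue such as this, fewer cells of a type and less RNA per cell cannot be told apart.

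Plant defensins are small secreted peptides held together by cysteine bridges, and many of them stop fungal growth. PDF1.2 is the textbook marker of the leaf defence branch that answers to jasmonate together with ethylene, which acts through transcription factors such as ERF1 and ORA59. The other jasmonate branch runs through MYC2, works together with ABA and is known to oppose the first. LCR66, also named PDF2.4, belongs to the low-molecular-weight cysteine-rich family and is less studied.

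Every value below is a log2 signal or a difference of log2 signals. Median signal per array ran from 130.6 to 187.4, and 2 arrays of the same genotype correlated at 0.958 to 0.983 over the tested probe sets. Of the 26 genes listed as induced by cold or ABA, 5 had a named probe set and were tested. Of these, 5 fell in aba2 (where 5.03% of all tested probe sets were called), 4 in aba2/ga20ox1 (7.37%), 4 in aba2/GA20OX1-OE (8.62%) and 0 in ABA2-OE (0.226%), each against Col-0 by limma. This list was chosen with earlier results of these data known, so the counts are no independent check of the genotypes. Among single arrays, aba2/GA20OX1-OE replicate 3 had the highest median signal, and GA20OX1-OE replicate 2 departed most from its group in LCR66 and PDF1.2b. Where leaving out one of these arrays moves a defensin difference by over 1.5 times, the value without it is given. Of the leaf markers listed, 0 of 8 had a probe set named by the annotation, so the tissue label was not checked against them. All 3 defensin probe sets passed the low-signal filter, which asked for a mean log2 signal over all arrays of at least 5.257. LCR66 passed it through the genotypes where it is high, since its means in Col-0 (3.88) and ga20ox1 (3.43) were under that bound. Over all arrays the means stood at 8.82 for PDF1.2, 9.94 for PDF1.2b and 6.41 for LCR66, at the 71.9th, 84.9th and 40.9th percentile of all probe sets.

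PDF1.2 (AT5G44420) was brightest in the 3 genotypes that carry aba2. In aba2 its log2 signal was 9.88, 9.61 and 10.44, a mean of 9.98 ± 0.42 (SD, n = 3 here and below). In aba2/ga20ox1 it was 10.27, 9.85 and 10.93 (10.35 ± 0.54), and in aba2/GA20OX1-OE it was 9.43, 8.52 and 10.28 (9.41 ± 0.88). The last of these genotypes was thus the most scattered, with replicate 2 at the level of the plants with ABA2. Plants with an intact ABA2 gene lay in a lower and narrower range. PDF1.2 read 8.37, 7.59 and 8.10 in ABA2-OE (8.02 ± 0.40), 8.34, 8.35 and 8.42 in ga20ox1 (8.37 ± 0.04), and 7.37, 8.32 and 7.35 in GA20OX1-OE (7.68 ± 0.55). Col-0 had 8.57, 7.49 and 7.69 (7.92 ± 0.58). From high to low the means ran aba2/ga20ox1, aba2, aba2/GA20OX1-OE, ga20ox1, ABA2-OE, Col-0 and GA20OX1-OE. The step of 1.04 between aba2/GA20OX1-OE and ga20ox1 was the place where neighbours in this order had no overlapping arrays, and every other pair of neighbours overlapped.

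PDF1.2b (AT2G26020), the close relative of PDF1.2, also had its 3 highest means in the genotypes that carry aba2, but with other gaps between neighbours. Its log2 signal was 11.43, 11.76 and 12.04 in aba2 (11.74 ± 0.31). In aba2/ga20ox1 it was 11.74, 11.78 and 12.24 (11.92 ± 0.28), and in aba2/GA20OX1-OE it was 10.95, 9.14 and 10.84 (10.31 ± 1.01). The aba2/GA20OX1-OE arrays were all below those of aba2, and replicate 2 again fell among the plants with ABA2. The signal was 8.86, 8.65 and 8.93 in ABA2-OE (8.81 ± 0.15), 9.57, 9.64 and 9.73 in ga20ox1 (9.65 ± 0.08), and 7.58, 9.73 and 7.49 in GA20OX1-OE (8.27 ± 1.27). In Col-0 it was 9.18, 8.19 and 9.17 (8.84 ± 0.57). Replicate 2 of GA20OX1-OE stood at the ga20ox1 level, more than 2 log2 units above both other arrays of its genotype. The order of means was aba2/ga20ox1, aba2, aba2/GA20OX1-OE, ga20ox1, Col-0, ABA2-OE and GA20OX1-OE. Neighbours did not overlap at the step of 1.43 below aba2 and at the step of 0.80 between ga20ox1 and Col-0, and they overlapped elsewhere. The identifier of this probe set carries a suffix by which the manufacturer marks probes that can also match other sequences. The genes next to PDF1.2 and PDF1.2b on their chromosomes, PDF1.2c and PDF1.3, have no probe set of their own in the annotation. Signal from these near-identical family members and from PDF1.2 and PDF1.2b therefore cannot be told apart here.

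LCR66 (AT1G61070) was near the floor of detection in the wild type and well above it in every genotype with aba2. Its log2 signal was 8.20, 8.47 and 8.18 in aba2 (8.28 ± 0.16). In aba2/ga20ox1 it was 8.48, 7.86 and 8.28 (8.21 ± 0.32), and in aba2/GA20OX1-OE it was 8.97, 9.02 and 8.23 (8.74 ± 0.44). These 9 arrays lay close together. ABA2-OE, with 7.07, 7.42 and 6.73 (7.08 ± 0.34), was also high. The signal was 4.46, 4.10 and 1.72 in ga20ox1 (3.43 ± 1.49), 7.88, 2.38 and 5.57 in GA20OX1-OE (5.28 ± 2.76), and 1.92, 5.44 and 4.27 in Col-0 (3.88 ± 1.79). The means in ga20ox1 and Col-0 were under the low-signal bound of 5.257, where differences of the log signal are poorly measured, so no fold is given for LCR66. The order of means was aba2/GA20OX1-OE, aba2, aba2/ga20ox1, ABA2-OE, GA20OX1-OE, Col-0 and ga20ox1. The step of 1.13 between aba2/ga20ox1 and ABA2-OE was the place where neighbours did not overlap. The 3 GA20OX1-OE arrays spanned nearly the whole range of the gene, from replicate 2 within the Col-0 range to replicate 1 just below the aba2 arrays.

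**Figure D1:**
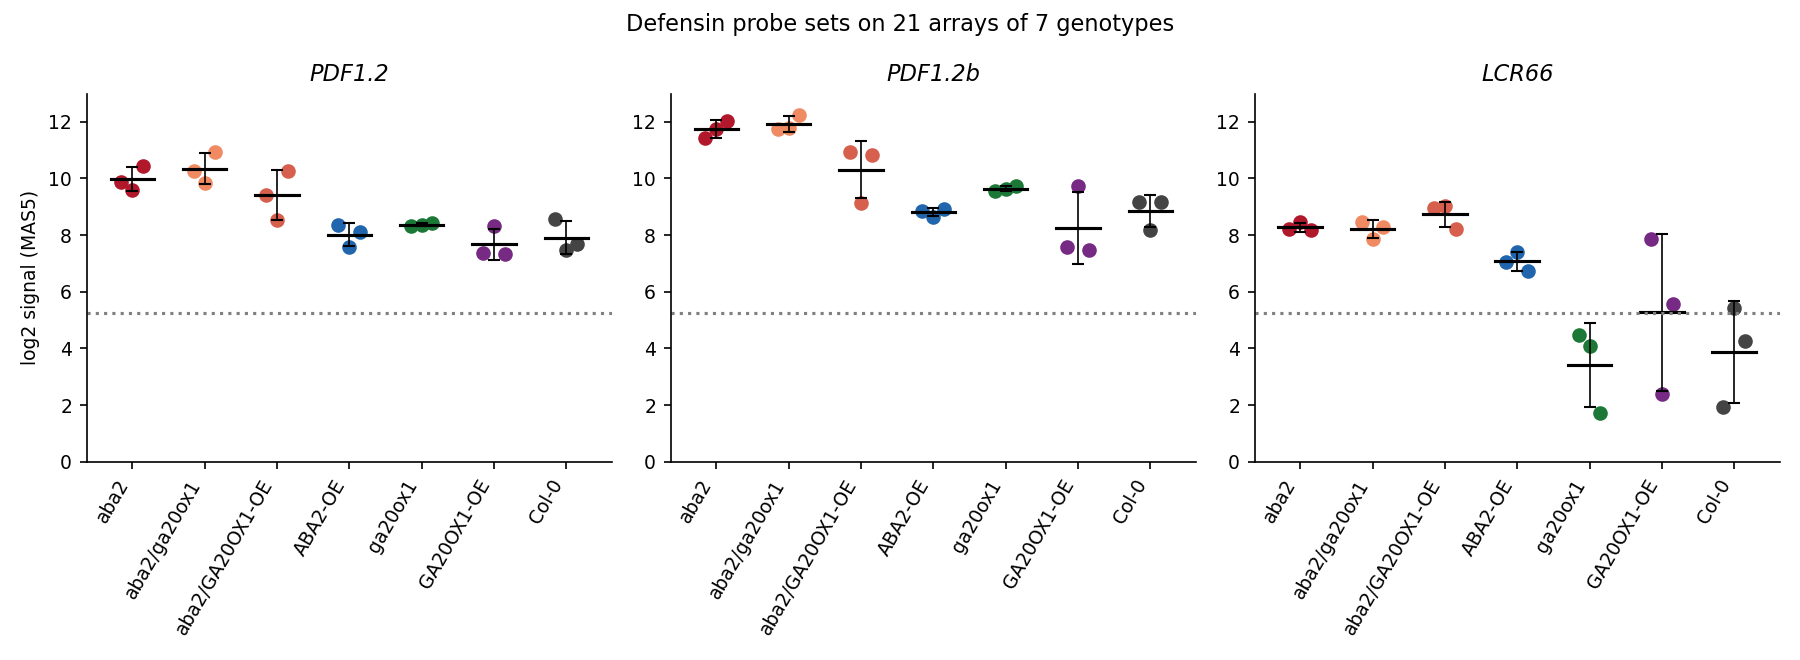
Log2 signal (vertical axis) of PDF1.2, PDF1.2b and LCR66 on each of 21 arrays, grouped by genotype. Points are arrays, thick bars are means, thin bars are ± 1 SD (n = 3), and the dotted line is the low-signal bound of 5.257. For all 3 genes the 3 genotypes with aba2 have the highest means, and LCR66 is also raised in ABA2-OE at 7.08.

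Grouped by the state of ABA2, the arrays divided with few exceptions for PDF1.2 and LCR66 and with more overlap for PDF1.2b. PDF1.2 ran from 8.52 to 10.93 (median 9.88) on the 9 arrays with aba2 and from 7.35 to 8.57 (median 8.21) on the other 12. PDF1.2b ran from 9.14 to 12.24 (median 11.74) on the arrays with aba2 and from 7.49 to 9.73 (median 9.05) on the rest. LCR66 ran from 7.86 to 9.02 (median 8.28) on the arrays with aba2 and from 1.72 to 7.88 (median 4.95) on the rest. For each gene, 8 of the 9 arrays with aba2 lay above all 12 others. The exception was aba2/GA20OX1-OE replicate 2 for PDF1.2 and PDF1.2b, and aba2/ga20ox1 replicate 2 for LCR66. Of the 12 others, 11 lay below all arrays with aba2 for PDF1.2 and for LCR66, but 6 did so for PDF1.2b.

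Loss of ABA2 alone was read from aba2 against Col-0. PDF1.2 was 4.16-fold higher in aba2 (log2 difference 2.06, SE 0.37) and PDF1.2b was 7.46-fold higher (2.90, SE 0.45). LCR66 was higher by 4.41 (SE 0.93), or by 3.08 when a pseudocount of 20.1 was added to the signals before the log. All 3 probe sets had every aba2 array above every Col-0 array, as did 11.6% of all tested probe sets. Leaving out any 1 array kept the difference between 1.83 and 2.39 for PDF1.2, between 2.57 and 3.06 for PDF1.2b and between 3.43 and 5.19 for LCR66.

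The same loss was next read in plants with altered GA synthesis. Against ga20ox1, the double mutant aba2/ga20ox1 had 3.95-fold more PDF1.2 signal (1.98, SE 0.37) and 4.83-fold more PDF1.2b signal (2.27, SE 0.45). LCR66 was higher by 4.78 (SE 0.93), or 3.25 with the pseudocount. All 3 were without overlap, against 11.0% of tested probe sets that were higher without overlap. Against GA20OX1-OE, the line aba2/GA20OX1-OE had 3.32-fold more PDF1.2 signal (1.73, SE 0.37) and 4.12-fold more PDF1.2b signal (2.04, SE 0.45). LCR66 was higher there by 3.46 (SE 0.93), or by 2.56 with the pseudocount. PDF1.2 and LCR66 had no overlap between these lines, against 11.2% of tested probe sets, and PDF1.2b overlapped because of replicate 2 in both genotypes. Without GA20OX1-OE replicate 2 the LCR66 difference was 2.02, and without GA20OX1-OE replicate 1 it was 4.77. The PDF1.2 difference was 1.3 without aba2/GA20OX1-OE replicate 3. Without aba2/GA20OX1-OE replicate 2 the PDF1.2b difference was 2.63, and without GA20OX1-OE replicate 2 it was 2.78.

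Set against the wild type, all 3 genes had higher means in both combinations, without overlap in aba2/ga20ox1 and with overlap for PDF1.2 and PDF1.2b in aba2/GA20OX1-OE. In aba2/ga20ox1 PDF1.2 was 5.40-fold higher than in Col-0 (2.43, SE 0.37), PDF1.2b was 8.43-fold higher (3.08, SE 0.45) and LCR66 was higher by 4.33 (SE 0.93; 3.01 with the pseudocount). Of tested probe sets 11.9% were likewise higher without overlap. In aba2/GA20OX1-OE PDF1.2 was 2.81-fold higher than in Col-0 (1.49, SE 0.37) and PDF1.2b was 2.76-fold higher (1.46, SE 0.45). Without aba2/GA20OX1-OE replicate 3 the PDF1.2 difference was 1.06. LCR66 in aba2/GA20OX1-OE was higher by 4.86 (SE 0.93; 3.52 with the pseudocount). LCR66 was without overlap there, against 14.6% of tested probe sets. The lowest aba2/GA20OX1-OE array and the highest Col-0 array met at 8.52 and 8.57 for PDF1.2 and at 9.14 and 9.18 for PDF1.2b. These comparisons share the Col-0 arrays, so their like values are not independent of each other.

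**Figure D2:**
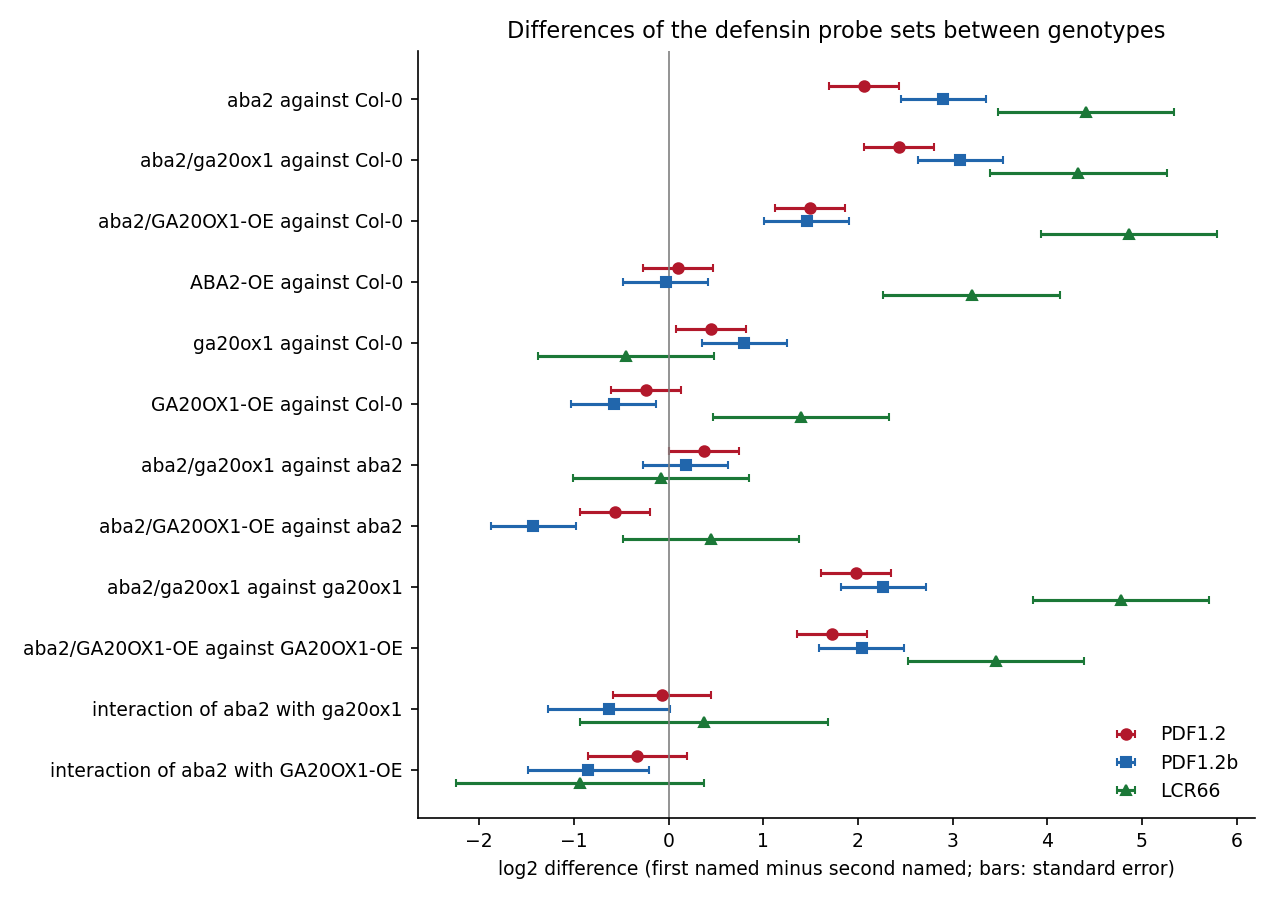
Log2 differences (horizontal axis) of PDF1.2, PDF1.2b and LCR66 in 10 comparisons and 2 interactions, first-named genotype minus second-named, with bars of ± 1 standard error. The comparisons that remove ABA2 lie to the right of 0 for all 3 genes, and ABA2-OE against Col-0 does so for LCR66 at 3.2.

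Within aba2, a change of GA synthesis moved the genes less than loss of ABA2 did. In aba2/ga20ox1 against aba2 the differences were 0.37 for PDF1.2 (SE 0.37), 0.18 for PDF1.2b (SE 0.45) and -0.08 for LCR66 (SE 0.93). Arrays of these genotypes overlapped for all 3 genes, while 5.81% of tested probe sets were higher and 7.97% lower without overlap. In aba2/GA20OX1-OE against aba2, PDF1.2b was 2.70-fold lower (-1.43, SE 0.45) and PDF1.2 was 1.48-fold lower (-0.57, SE 0.37), while LCR66 differed by 0.45 (SE 0.93). Of the 3, PDF1.2b was lower without overlap, against 5.97% of tested probe sets that were lower without overlap. Its difference was -0.85 without aba2/GA20OX1-OE replicate 2 and -1.75 without aba2/GA20OX1-OE replicate 1. The PDF1.2 difference was -1.0 without aba2/GA20OX1-OE replicate 3, -0.12 without aba2/GA20OX1-OE replicate 2 and -0.34 without aba2 replicate 3, and the LCR66 difference was 0.71 without aba2/GA20OX1-OE replicate 3. In aba2/ga20ox1 against aba2 the differences with single arrays left out ran from 0.09 to 0.62 for PDF1.2, 0.02 to 0.32 for PDF1.2b and -0.21 to 0.10 for LCR66.

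Where ABA2 was intact, GA20OX1 changes went with differences from Col-0 of at most 0.80 for PDF1.2 and PDF1.2b, and LCR66 differed by 1.4 in GA20OX1-OE with widely scattered arrays. In ga20ox1 PDF1.2 differed by 0.45 (SE 0.37), PDF1.2b by 0.80 (SE 0.45) and LCR66 by -0.45 (SE 0.93). PDF1.2b, 1.75-fold higher, was the member without overlap in ga20ox1, against 4.84% of tested probe sets. Leaving out single arrays took the LCR66 difference from -1.43 without Col-0 replicate 1 to 0.40 without ga20ox1 replicate 3, so its sign in ga20ox1 was not settled. The PDF1.2 difference then ran from 0.24 to 0.78 and the PDF1.2b difference from 0.48 to 0.97. In GA20OX1-OE PDF1.2 differed by -0.24 (SE 0.37), PDF1.2b by -0.58 (SE 0.45) and LCR66 by 1.4 (SE 0.93; 0.96 with the pseudocount). All 3 overlapped with Col-0, while 11.7% of tested probe sets were higher and 6.71% lower without overlap. Single arrays set the size of the PDF1.2b and LCR66 differences. Without GA20OX1-OE replicate 2 the PDF1.2b difference was -1.31 and the LCR66 difference was 2.85, while without GA20OX1-OE replicate 1 they were -0.23 and 0.10, and without replicate 3 the PDF1.2b difference was -0.19. Without Col-0 replicate 1 the LCR66 difference was 0.42 and that of PDF1.2 was 0.09, while without GA20OX1-OE replicate 2 PDF1.2 differed by -0.56.

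The interaction asks whether the effect of a GA20OX1 change differs between plants without and with ABA2. For ga20ox1 it was -0.07 for PDF1.2 (SE 0.52), -0.63 for PDF1.2b (SE 0.64) and 0.37 for LCR66 (SE 1.31). For GA20OX1-OE it was -0.33 for PDF1.2 (SE 0.52), -0.85 for PDF1.2b (SE 0.64) and -0.94 for LCR66 (SE 1.31). None of these 6 values was as large as 1.5 standard errors. The PDF1.2b value for GA20OX1-OE was -0.12 without GA20OX1-OE replicate 2 and -0.27 without aba2/GA20OX1-OE replicate 2. The LCR66 value was -2.39 without GA20OX1-OE replicate 2, 0.36 without GA20OX1-OE replicate 1 and 0.03 without Col-0 replicate 1. The PDF1.2 value was -0.76 without aba2/GA20OX1-OE replicate 3, 0.12 without aba2/GA20OX1-OE replicate 2 and -0.01 without GA20OX1-OE replicate 2. For ga20ox1, single arrays left out gave -0.40 to 0.18 for PDF1.2, -0.79 to -0.30 for PDF1.2b and -0.48 to 1.35 for LCR66.

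In ABA2-OE against Col-0 the genes parted. PDF1.2 differed by 0.10 (SE 0.37) and PDF1.2b by -0.03 (SE 0.45), with overlapping arrays. LCR66 was higher by 3.2 (SE 0.93), or 1.99 with the pseudocount, and every ABA2-OE array lay above every Col-0 array, as did 8.29% of tested probe sets. LCR66 was thus higher than in Col-0 both where ABA2 was lost and where it was overexpressed, and PDF1.2 and PDF1.2b were higher where it was lost.

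Other organs were followed beside LCR66 by the markers that the annotation names. Of 14 flower and pollen markers, 2 had a named probe set, ATA27, an anther beta-glucosidase gene, and ACT11, an actin gene expressed in pollen. ATA27 stood at 7.89 ± 2.23 in aba2, 7.03 ± 0.79 in aba2/ga20ox1 and 9.96 ± 0.39 in aba2/GA20OX1-OE. It was at 5.19 ± 1.26 in ABA2-OE, 2.35 ± 1.85 in ga20ox1, 5.61 ± 1.96 in GA20OX1-OE and 3.15 ± 1.36 in Col-0. Its means in ABA2-OE, ga20ox1 and Col-0 were under the low-signal bound, where levels have no reliable order and differences are poorly measured, and it passed the filter through the genotypes where it is high. It was brightest in aba2/GA20OX1-OE, as LCR66 was. In aba2 it was called higher than in Col-0 (limma adjusted p = 0.0066), by 4.74 (SE 1.03) or by 3.17 with the pseudocount, a call lost without Col-0 replicate 1 or aba2 replicate 2 (up to 0.058). ACT11 did not follow it, with means of 7.46 in aba2, 7.08 in aba2/ga20ox1, 8.57 in aba2/GA20OX1-OE and 8.32 in Col-0. In aba2 ACT11 fell by 0.86 against Col-0 (SE 0.19, limma adjusted p = 0.0081). The summed linear signal of both genes ran from 197.7 to 885.8 in aba2, 200.9 to 390.8 in aba2/ga20ox1, 1053.3 to 1763.7 in aba2/GA20OX1-OE and 309.8 to 354.5 in Col-0. It ran from 315.9 to 378.6 in ABA2-OE, 231.5 to 327.9 in ga20ox1 and 334.2 to 521.4 in GA20OX1-OE. The part of flower tissue in the LCR66 values was not tested.

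LCR67, also named PDF1.1 and the 1 of 10 seed markers with a named probe set, averaged 1.12 over all arrays, under the low-signal bound in every genotype. The 3 named root markers of 7 (PYK10, EXPA18 and EXPA7) summed to 823.3 to 990.9 in aba2, 973.3 to 1227.2 in aba2/ga20ox1, 316.9 to 726.6 in aba2/GA20OX1-OE, 613.2 to 755.8 in ABA2-OE, 1606.9 to 1825.8 in ga20ox1, 1103.2 to 1701.7 in GA20OX1-OE and 860.1 to 1017.0 in Col-0. The sums were thus highest in ga20ox1 and lowest in aba2/GA20OX1-OE. They mostly follow PYK10, whose log2 signal averaged 9.77 over all arrays, beside 5.43 for EXPA18 and 3.32 for EXPA7. EXPA18 did not fall with PYK10. It stood at 5.63 ± 1.06 in aba2/GA20OX1-OE and 4.16 ± 1.25 in Col-0, the latter mean under the low-signal bound. PYK10, a root beta-glucosidase gene, fell by 1.1 in aba2/GA20OX1-OE against Col-0 (SE 0.25, limma adjusted p = 0.0079), a call lost without aba2/GA20OX1-OE replicate 3 and in the fit of these groups alone (up to 0.10). Against GA20OX1-OE it fell by 1.62 in aba2/GA20OX1-OE (SE 0.25, limma adjusted p = 0.00035). The part of root tissue in the defensin values was not tested.

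PDF1.2 and PDF1.2b moved together across the 21 arrays, and LCR66 did not move with them inside a genotype. Pearson's r between PDF1.2 and PDF1.2b was 0.95 (Spearman's rho 0.89), the highest that either gene had with any tested probe set. It was 0.76 for the deviations of arrays from their genotype means. Part of this likeness may come from probes that match both transcripts, which was not tested. For LCR66, r was 0.49 with PDF1.2 and 0.41 with PDF1.2b over the arrays, and 0.75 and 0.65 over the 7 genotype means. Deviations of LCR66 from its genotype means ran opposite to theirs, at r -0.54 with PDF1.2 and -0.66 with PDF1.2b. Some of these LCR66 deviations come from arrays under the low-signal bound, where they are poorly measured. These coefficients describe arrays that share genotypes, hybridisations and scaling, and they carry no test.

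The arrays behind the opposed deviations were few. On GA20OX1-OE replicate 2 PDF1.2 deviated by 0.63, PDF1.2b by 1.47 and LCR66 by -2.90 from the genotype mean. On GA20OX1-OE replicate 1 PDF1.2 deviated by -0.31, PDF1.2b by -0.69 and LCR66 by 2.61. Col-0 replicate 1 deviated by 0.66, 0.33 and -1.95 for PDF1.2, PDF1.2b and LCR66, and Col-0 replicate 2 by -0.43, -0.66 and 1.56 in the same order. All 4 arrays are of GA20OX1-OE and Col-0, plants with an intact ABA2 gene in which LCR66 signals were scattered (SD 2.76 and 1.79). In ABA2-OE, which also has ABA2, they were not (SD 0.34). LCR66 read 2.38 on GA20OX1-OE replicate 2 and 1.92 on Col-0 replicate 1, far under the low-signal bound of 5.257. Deviations are poorly measured there. In ga20ox1, with a mean of 3.43 under that bound, LCR66 also scattered (SD 1.49). Its deviations in ga20ox1 ran from -1.71 to 1.04, while those of PDF1.2b stayed between -0.08 and 0.08. On aba2/GA20OX1-OE replicate 2 the deviations were -0.89 for PDF1.2, -1.17 for PDF1.2b and 0.28 for LCR66.

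**Figure D3:**
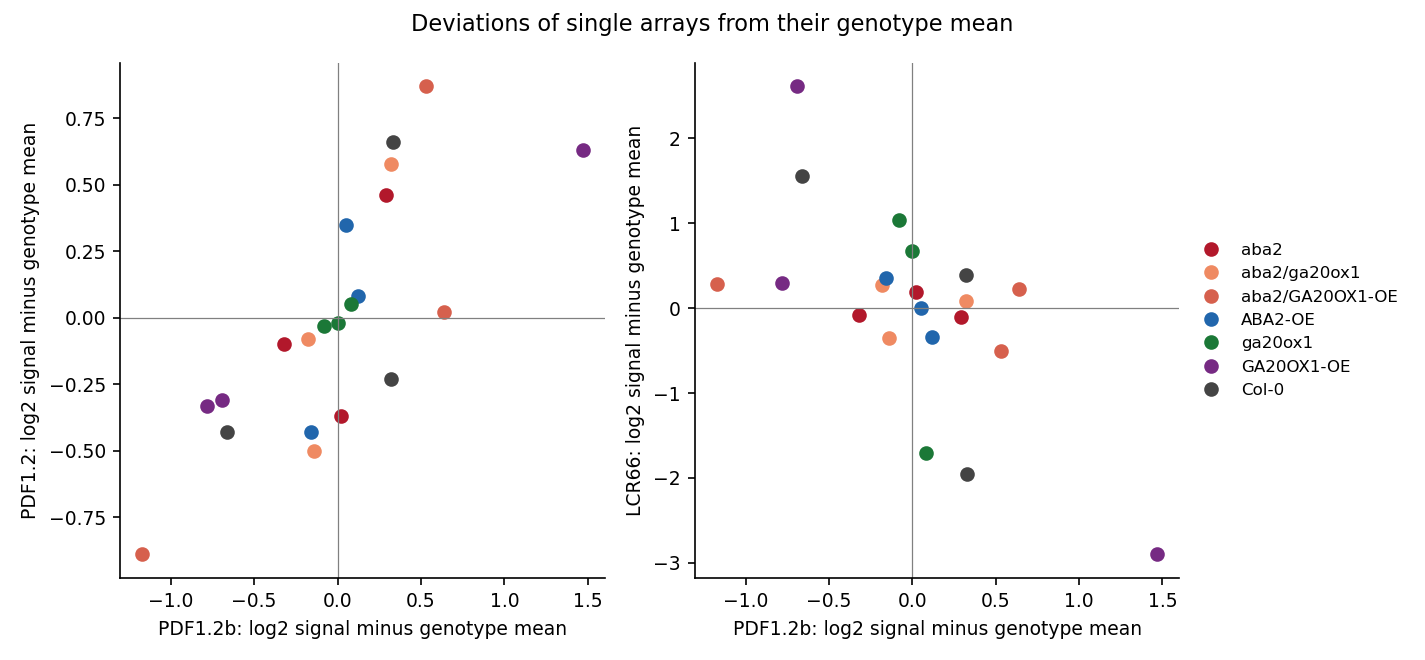
Deviation of each array from the mean of its genotype, in log2 signal, for PDF1.2 (left panel, vertical axis) and LCR66 (right panel, vertical axis) against PDF1.2b (horizontal axis), coloured by genotype. PDF1.2 and PDF1.2b deviate mostly in the same direction (r 0.76; Col-0 replicate 3 and aba2 replicate 2 are exceptions), and the lowest LCR66 deviation, -2.90, belongs to the GA20OX1-OE array with the highest PDF1.2b deviation, 1.47.

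The genes most like each defensin were the 5 tested probe sets with a single gene and the highest Pearson's r over the 21 arrays. For PDF1.2 these were PDF1.2b (0.95), AT3G23550 (0.93), AT3G16530 (0.93), the cytochrome P450 gene CYP71B22 (0.91) and AT4G11290 (0.89). For PDF1.2b they were PDF1.2 (0.95), AT3G16530 (0.95), CYP71B22 (0.92), AT3G23550 (0.92) and YLS5 (0.88). The lists share 3 genes besides the defensins themselves. AT3G16530 read 12.08, 12.21 and 12.28 in aba2 and 9.42, 9.45 and 9.59 in Col-0, with 11.46, 10.60 and 11.42 in aba2/GA20OX1-OE. AT3G23550 read 10.36, 10.98 and 11.07 in aba2 and 7.25, 6.86 and 7.51 in Col-0. Like PDF1.2b, both genes had their lowest array among the 9 with aba2 on aba2/GA20OX1-OE replicate 2, at 10.60 and 9.45. CYP71B22 had its lowest there too, at 8.85, close to the Col-0 arrays at 8.55, 8.53 and 8.78. AT4G11290 followed PDF1.2 over the genotypes but not inside them, where r was -0.10.

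LCR66 had a different set of most similar genes. They were AT2G20870 (0.95), AT1G47980 (0.95), AT1G44970 (0.93), RXF26 (0.93) and AT5G52160 (0.92). AT2G20870 read 11.38, 11.43 and 11.35 in aba2, 10.36, 10.03 and 10.32 in ABA2-OE, and 7.19, 9.47 and 9.07 in Col-0. All 3 genotypes kept apart, and Col-0 replicate 1 was low, as it was for LCR66. AT1G47980 read 4.58, 6.80 and 6.19 in ABA2-OE and 2.02, 4.66 and 4.67 in Col-0. On GA20OX1-OE arrays RXF26 read 7.73, 3.74 and 6.20 and AT1G44970 read 7.52, 3.63 and 6.81. Both genes were high on replicate 1 and low on replicate 2, in the order of LCR66 (7.88, 2.38 and 5.57). Likeness inside genotypes was 0.87 for AT2G20870, 0.84 for AT1G47980, 0.82 for AT1G44970, 0.78 for RXF26 and 0.75 for AT5G52160. Like LCR66, AT1G47980, AT1G44970 and AT5G52160 had means under the low-signal bound in Col-0 (3.78, 4.95 and 4.24) and in ga20ox1. RXF26 was under it in ga20ox1 (4.91). Part of the likeness of these genes to LCR66 inside genotypes therefore rests on poorly measured values. These lists depend on the measure. Over the 7 genotype means 0 of the 5 genes most like LCR66 stayed among its 5 most similar, as did 2 of 5 for PDF1.2 and 3 of 5 for PDF1.2b.

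**Figure D4:**
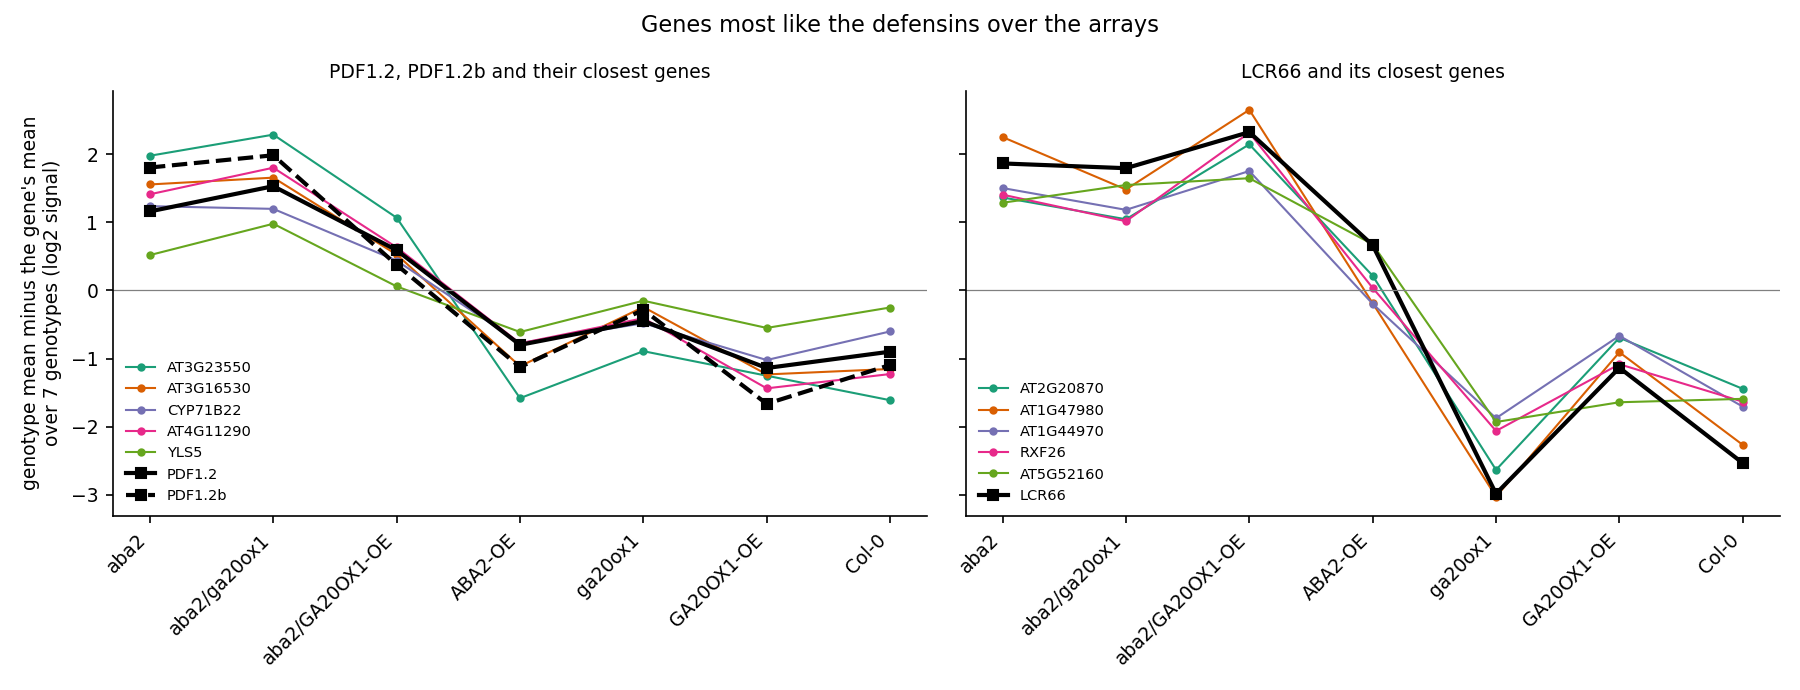
Genotype means of PDF1.2, PDF1.2b and LCR66 (black) and of the genes most like them (colours), each in log2 signal minus the gene's mean over 7 genotypes. Lines join genotypes for reading and imply no order. In ABA2-OE, LCR66 is above its mean and PDF1.2 and PDF1.2b are below theirs.

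Other defence genes were taken from lists of defensins and small peptides, jasmonate, ethylene, salicylic acid and camalexin genes, and from further genes with a defence name in the annotation. The annotation names few of them. ERF1, ORA59, PR3, PR4, VSP2, LOX2, PR1 and MYC2 were not analysed here, and 25 genes besides PDF1.2, PDF1.2b and LCR66 were tested. In aba2 against Col-0, 2 of the 25 rose and 1 fell, in a comparison where 5.03% of all tested probe sets were called. The median difference of the 25 was 0.09, beside 0.06 for all probe sets. WRKY47, a WRKY transcription factor gene, rose by 1.19 (SE 0.26, limma adjusted p = 0.0065), with means of 7.34 in aba2 and 6.15 in Col-0. ChiC, a chitinase gene, rose by 1.06 (SE 0.23, limma adjusted p = 0.0071), with means of 7.44 in aba2 and 6.37 in Col-0. LCR68, the defensin gene also named PDF2.3, fell by 0.54 (SE 0.13, limma adjusted p = 0.013), at 11.44 in aba2 and 11.99 in Col-0. The WRKY47 call was lost without aba2 replicate 3 (adjusted p = 0.055), the ChiC call without Col-0 replicate 1 (0.060), and the LCR68 call in the fit of these groups alone and without any 1 of aba2 replicates 2 and 3 and Col-0 replicates 1 and 3 (up to 0.089).

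In aba2/ga20ox1 against Col-0, 4 of the 25 rose and 1 fell, where 7.37% of all tested probe sets were called. The median was -0.04, beside 0.00 for all probe sets. OSM34, an osmotin gene of the thaumatin family, rose by 1.86 (SE 0.44, limma adjusted p = 0.0098), with 6.65, 7.53 and 7.69 in aba2/ga20ox1 and 5.50, 5.30 and 5.50 in Col-0. ChiC rose by 1.68 (SE 0.23, limma adjusted p = 6.7e-05), with 8.00, 8.10 and 8.06 in aba2/ga20ox1 and 5.94, 6.51 and 6.67 in Col-0. Neither gene overlapped between these genotypes, where 11.9% of tested probe sets were higher without overlap. WRKY47 rose by 1.24 (SE 0.26, limma adjusted p = 0.0036), and BIK1, a receptor-like kinase gene of immune signalling, rose by 0.73 (SE 0.20, limma adjusted p = 0.023). THI2.1, a thionin gene of the jasmonate response, fell by 1.56 (SE 0.41, limma adjusted p = 0.019), with 4.90, 5.29 and 5.88 in aba2/ga20ox1 and 5.67, 7.48 and 7.60 in Col-0. Col-0 replicate 1 lay within the double mutant's range for THI2.1. The OSM34 call was lost without aba2/ga20ox1 replicate 3 (adjusted p = 0.064). The THI2.1 call was lost without any 1 of aba2/ga20ox1 replicates 1 and 2 and Col-0 replicates 2 and 3 (up to 0.13). The BIK1 call was lost without any 1 aba2/ga20ox1 array or Col-0 replicate 2 or 3 (up to 0.15), and both calls in the fit of these groups alone.

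Against ga20ox1 the double mutant had 3 of the 25 called, all higher, where 5.44% of all tested probe sets were called. They were OSM34 (1.77, SE 0.44, limma adjusted p = 0.017), ChiC (1.32, SE 0.23, limma adjusted p = 0.0013) and WRKY47 (1.01, SE 0.26, limma adjusted p = 0.022). The ChiC call held without any single array. The OSM34 call was lost without ga20ox1 replicate 1 or 2 or aba2/ga20ox1 replicate 2 or 3 (up to 0.10), and the WRKY47 call without ga20ox1 replicate 2 or any aba2/ga20ox1 array (up to 0.11). In aba2/GA20OX1-OE 0 of the 25 were called against Col-0, where 8.62% of all tested probe sets were called by limma. An unadjusted limma p under 0.05 was found there for 9 of the 25 and for 3614 of all 15923 tested probe sets. With array weights 2 were called there, and after quantile normalization 1. In the other 6 comparisons and both interactions 0 of the 25 were called by limma, and array weights called 3 in aba2/GA20OX1-OE against GA20OX1-OE. In these comparisons and interactions 0 to 5 of the 25 had an unadjusted limma p under 0.05, as had 847 to 2738 of all 15923 tested probe sets. The share of all tested probe sets called was 4.52% for aba2/GA20OX1-OE against GA20OX1-OE, 0.76% for aba2/GA20OX1-OE against aba2, 0.226% for ABA2-OE against Col-0, 0.0126% for ga20ox1 against Col-0 and 0.0188% for GA20OX1-OE against Col-0 (3 probe sets, or 7 with the replicate number as a block). It was 0.00628% for aba2/ga20ox1 against aba2, 0.0377% for the interaction with GA20OX1-OE and 0.0% for the interaction with ga20ox1, where 1156 probe sets had an unadjusted p under 0.05. EIN3, the transcription factor gene of ethylene signalling, varied little, with means from 10.33 in ABA2-OE to 10.77 in GA20OX1-OE and 10.51 in Col-0.

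**Figure D5:**
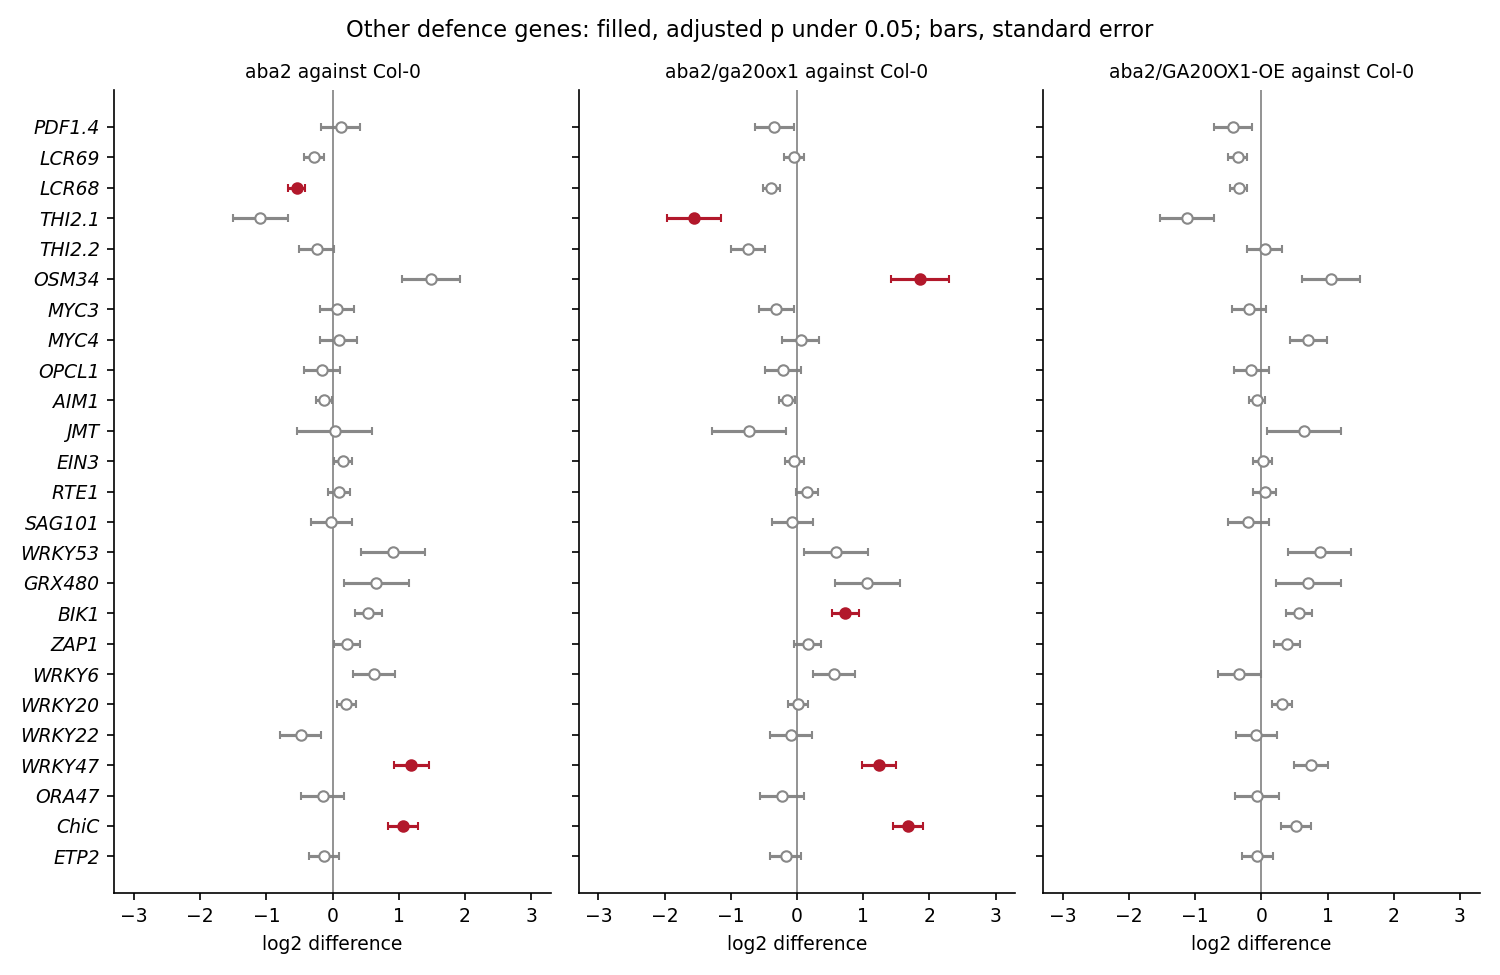
Log2 differences (horizontal axis) of the 25 other defence genes in aba2, aba2/ga20ox1 and aba2/GA20OX1-OE against Col-0, with bars of ± 1 standard error. Filled points have a limma adjusted p under 0.05, 3 in aba2, 5 in aba2/ga20ox1 and 0 in aba2/GA20OX1-OE.

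Of 12 other genes of the defensin and small peptide list, 5 passed the low-signal filter. By limma 0 of these 5 were called higher in aba2, 1 (LCR68) was called lower, and 2 had an unadjusted p under 0.05. Of all 15923 tested probe sets 2509 had an unadjusted limma p under 0.05 in aba2. The median difference of the 5 in aba2 against Col-0 was -0.28, and that of all probe sets was 0.06. LCR69, also named PDF2.2, stood at 13.42 ± 0.15 in aba2, 13.66 ± 0.15 in aba2/ga20ox1, 13.33 ± 0.07 in aba2/GA20OX1-OE and 13.70 ± 0.14 in Col-0. PDF1.4 stood at 6.40 ± 0.22 in aba2 and 6.29 ± 0.36 in Col-0, and the thionin gene THI2.2 at 9.32 ± 0.35 in aba2, 8.82 ± 0.25 in aba2/ga20ox1, 9.61 ± 0.61 in aba2/GA20OX1-OE and 9.56 ± 0.25 in Col-0. By limma none of these 3 genes was called in aba2, aba2/ga20ox1 or aba2/GA20OX1-OE against Col-0. Every aba2/ga20ox1 array of THI2.2 (8.64, 9.10 and 8.70) was below every Col-0 array (9.83, 9.52 and 9.33), with a difference of -0.74 (SE 0.26, limma adjusted p = 0.090). The share of all tested probe sets lower without overlap in this comparison was not counted. The share higher without overlap was 11.9%. THI2.2 was called lower there with the replicate number as a block and in the fit of these groups alone (adjusted p from 0.023 to 0.26 over all alternatives). The remaining 7, among them LCR67, PDF2.1, PDF2.5 and LCR72, had means under the low-signal bound in every genotype, so a difference at that level was not measurable here.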

How the data were processed

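Total RNA was hybridised after biotin labelling to 21 single-channel Affymetrix arrays, per the labels. The authors deposited linear signal intensity values made with MAS5, per the submitters' processing notes. The sources used here give neither its version nor its settings. After trimming 2% of probe sets at each end, the mean was 500 on every array, so values had been scaled before deposition. The number of arrays limits the precision.

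Signals were logged to base 2. The 64 controls and the 30% of probe sets with the lowest mean (bound 5.257, signal 38.24) were left out, and 15923 were tested in 1 fit of 7 genotype means with limma 3.58.1 (lmFit, eBayes with trend, R 4.3.3). Calls are two-sided with Benjamini-Hochberg adjusted p under 0.05. P-values measure the spread between these arrays, which may be technical. Likeness and figures used Python 3.11.15, numpy 2.4.6, pandas 2.3.3 and matplotlib 3.10.9.

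The 3 defensins, the lists and the comparisons were chosen with earlier results of these data known, so standard errors of the defensins come without a p. A list of 11 defence-named genes was added after the annotation was read, by name alone, and 8 of them were tested. Named genes are the 3 defensins, the 5 most like each, the called members of each list (at most 2 rises and 2 falls per list) and named transcription factors and markers where a probe set exists. LCR69, PDF1.4, THI2.2 and the low defensins were named after their values were seen. Symbols come from the array annotation (14016 probe sets listed, 13436 with 1 gene, 503 with several, 77 unmatched, 8730 not listed), matched to the TAIR10.1 gene table.

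Same-numbered arrays deviated together (r over 0.1) in 31 of 63 pairs and other pairs in 17 of 126, so the numbers may mark shared sets. All 3 pairs passed that bound in 3 of the 10 comparisons, those between aba2/GA20OX1-OE, GA20OX1-OE and Col-0. No label says what the numbers share, and the block was kept as an alternative for all comparisons. Alternatives were no trend, array weights, the replicate number as a block, the compared groups alone, no filter, a stricter filter (lowest 50% out, 11373 kept), a pseudocount of 20.1 (the 20th percentile), quantile normalization and each array left out. A fit with neither aba2/GA20OX1-OE replicate 3 nor GA20OX1-OE replicate 2 was chosen after seeing the data.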

Additional observations from a re-analysis of the deposited data

Results flagged for a closer look

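For 3 of the other defence genes every array of a GA20OX1 genotype lay on one side of the aba2 mean without ABA2 and on the opposite side of the Col-0 mean with it. The same count over all tested probe sets was not made, so whether 3 is more than usual is not known. Single arrays of the genotypes compared overlapped without ABA2 in LCR68 (aba2/GA20OX1-OE and aba2). In ChiC they overlapped with ABA2 (GA20OX1-OE and Col-0) and met at 7.18 without it (aba2/GA20OX1-OE and aba2). In WRKY53 they overlapped with ABA2 (ga20ox1 and Col-0) and also without it, where the aba2/ga20ox1 arrays lay within the aba2 range. For LCR68 the GA20OX1-OE difference was 0.20 in aba2/GA20OX1-OE against aba2 and -0.28 in GA20OX1-OE against Col-0. The ChiC difference for GA20OX1-OE was -0.54 without ABA2 and 0.25 with it. For WRKY53, a WRKY transcription factor gene, the ga20ox1 difference was -0.32 in aba2/ga20ox1 against aba2 and 0.41 in ga20ox1 against Col-0. The limma interaction was 0.48 for LCR68 (SE 0.18, adjusted p = 0.80), -0.79 for ChiC (SE 0.33, adjusted p = 0.85) and -0.73 for WRKY53 (SE 0.69, adjusted p = 0.81), and none was called by limma.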

How the results depend on the processing

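The 3 arrays per genotype and, for LCR66, signals under the low-signal bound limit these results. All 125 alternative values of the PDF1.2 differences moved by less than the spread between replicates, as did 117 of 125 for PDF1.2b and 111 of 125 for LCR66. These counts are no measure of stability. Leaving out 1 of 3 arrays moves a mean by less than that array's own deviation, and the block cannot move a difference. With single arrays left out PDF1.2 ran from -0.56 to 0.09 in GA20OX1-OE against Col-0. Its interaction with GA20OX1-OE ran from -0.76 to 0.12. The pseudocount gave LCR66 differences of 3.08 in aba2, 3.01 in aba2/ga20ox1, 3.52 in aba2/GA20OX1-OE and 1.99 in ABA2-OE against Col-0, and 3.25 in aba2/ga20ox1 against ga20ox1. Without both doubted arrays (aba2/GA20OX1-OE replicate 3, GA20OX1-OE replicate 2), GA20OX1-OE against Col-0 was -1.31 for PDF1.2b and 2.85 for LCR66, and LCR66 was 2.27 in aba2/GA20OX1-OE against GA20OX1-OE and -2.14 for that interaction. With single arrays left out PDF1.2b ran from 1.14 to 2.05 in aba2/GA20OX1-OE against Col-0, -1.31 to -0.19 in GA20OX1-OE against Col-0, -1.75 to -0.85 in aba2/GA20OX1-OE against aba2, 1.65 to 2.78 against GA20OX1-OE and -1.24 to -0.12 for the interaction. LCR66 ran from 0.10 to 2.85 in GA20OX1-OE against Col-0, 2.02 to 4.77 in aba2/GA20OX1-OE against GA20OX1-OE and -2.39 to 0.36 for the interaction.

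Of the 25 other defence genes, the stricter filter, which leaves out WRKY47, ChiC, OSM34 and THI2.1, left 1 called in aba2 (LCR68) and 1 in aba2/ga20ox1 (BIK1) against Col-0. In aba2/ga20ox1 against ga20ox1 it gave 1 call, BIK1, which the main fit did not call there. Array weights gave 2 in aba2/GA20OX1-OE against Col-0, 7 in aba2/ga20ox1 against ga20ox1 and 3 in aba2/GA20OX1-OE against GA20OX1-OE, and quantile normalization gave 1 in aba2/GA20OX1-OE against Col-0. With single arrays left out the counts ran from 1 to 3 in aba2, 3 to 5 in aba2/ga20ox1 and 0 to 2 in aba2/GA20OX1-OE against Col-0, 1 to 3 in aba2/ga20ox1 against ga20ox1 and 0 to 1 in aba2/GA20OX1-OE against GA20OX1-OE. Of the 5 genes most like each defensin, rho kept 2 for PDF1.2 and 3 for PDF1.2b, genotype means kept 2, 3 and 0 for PDF1.2, PDF1.2b and LCR66, the pseudocount kept 2 for LCR66, and leaving out both doubted arrays kept 3 for PDF1.2b.

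The counts of all probe sets called moved more. In the fit of the compared groups alone they were 547 for aba2/GA20OX1-OE, 11 for ABA2-OE, 0 for ga20ox1 and 1 for GA20OX1-OE against Col-0, 63 for aba2/GA20OX1-OE against aba2, 559 for aba2/ga20ox1 against ga20ox1, 378 for aba2/GA20OX1-OE against GA20OX1-OE and 1 in each interaction. Array weights gave 15 for ABA2-OE, 93 for ga20ox1 and 0 for GA20OX1-OE against Col-0, 6 for aba2/ga20ox1 and 387 for aba2/GA20OX1-OE against aba2, 3339 for aba2/ga20ox1 against ga20ox1, 1384 for aba2/GA20OX1-OE against GA20OX1-OE, and 23 (ga20ox1) and 10 (GA20OX1-OE) in the interactions. Without both doubted arrays they were 801 for aba2/GA20OX1-OE and 8 for GA20OX1-OE against Col-0, 321 for aba2/GA20OX1-OE against GA20OX1-OE and 3 in its interaction. Without the trend they were 9 for ABA2-OE, 0 for GA20OX1-OE and 2 in its interaction, where the pseudocount gave 10. Without the filter they were 1 for ga20ox1 and 0 for GA20OX1-OE, with the stricter filter 1 for ga20ox1 and 0 for aba2/ga20ox1 against aba2, and after quantile normalization 1 and 2 for these. With single arrays left out the counts against Col-0 ran from 491 to 739 for aba2, 657 to 1060 for aba2/ga20ox1, 822 to 1187 for aba2/GA20OX1-OE, 3 to 242 for ABA2-OE, 0 to 5 for ga20ox1 and 0 to 7 for GA20OX1-OE. They ran from 1 to 4 and 43 to 157 for aba2/ga20ox1 and aba2/GA20OX1-OE against aba2, 460 to 1048 for aba2/ga20ox1 against ga20ox1, 412 to 556 for aba2/GA20OX1-OE against GA20OX1-OE, and 0 to 0 and 0 to 13 in the interactions. The cause of these moves was not tested.

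With the replicate number as a block, 5 of the 25 defence genes were called in aba2/ga20ox1 against ga20ox1 (BIK1 and THI2.2 added), 4 in aba2 against Col-0 (OSM34 added) and 7 in aba2/ga20ox1 against Col-0 (LCR68 and THI2.2 added), and 211 probe sets in ABA2-OE against Col-0, 7 in GA20OX1-OE against Col-0 and 3 in aba2/ga20ox1 against aba2. As a hint from the data, 13 of 21 arrays correlated best with one of their own number, so whether the numbers pair the arrays is not settled. The defensin differences are the same with this block, because every genotype holds each number once.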
